A study of Mus musculus with 8 samples.

Results

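The genes described here are the 7 IGF binding protein genes Igfbp1 to Igfbp7 and the 3 receptor genes Igf1r, Igf2r and Insr, taken by symbol from a table of normalised counts of mouse liver. They are 10 of the 35204 gene symbols in the table, and all 10 passed the filter on low values, an 8-library mean of 10 or more, as did 14171 symbols in all. Insulin-like growth factors (IGF1 and IGF2) and insulin act through receptor tyrosine kinases encoded by Igf1r and Insr. The product of Igf2r carries mannose 6-phosphate tagged enzymes to lysosomes and clears IGF2. IGF binding proteins hold the ligands in blood and tissue, prolonging their life or keeping them from the receptors, and the adult liver is the main source of circulating IGF1 and of several binding proteins.

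Of the 8 libraries, all from C57BL/6J liver with a wild type genotype, 3 came from untreated mice (controls) and 5 from mice given TAZ S89A under an EF1a promoter by HTVI and carbon tetrachloride (CCl4) 30 times, at 3 injections a week for 10 weeks (TAZ-CCl4). HTVI in this field means hydrodynamic tail vein injection, which brings plasmid DNA mainly into hepatocytes. TAZ is a transcriptional coactivator of the Hippo pathway, S89A removes a site through which the pathway restrains it, and CCl4 is a toxin of the liver. The construct and CCl4 came together and the controls received neither, so the parts of each cannot be told apart; the library project also coincides with the group. Neither age nor sex is given, and no label states that libraries are from different mice, so the p-values reflect only how these libraries vary, which may be technical.

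Normalised totals ran from 29.8 to 35.1 M for control and from 12.4 to 14.2 M for TAZ-CCl4 libraries, so the choice of scaling matters. Deeper libraries carry less counting error, but the depth could only be estimated, at 18.6 to 24.9 M reads for control and 12.4 to 33.8 M for TAZ-CCl4 libraries. Wwtr1, which encodes TAZ, read 463, 358 and 280 in control livers, against 9021, 4339, 5114, 4892 and 5299 for TAZ-CCl4 replicates 1 to 5, higher in all libraries labelled as having the construct; the values do not separate construct from endogenous transcripts. Of 10 hepatocyte markers, 8 fell and 0 rose, with summed levels of 2501040 to 2872950 in the controls and 892998 to 1365180 in the TAZ-CCl4 libraries, and none was at 0 throughout a group; with totals made equal, 3 were lower and 1 higher. Of 11 tested myofibroblast and portal fibroblast markers, 10 rose and 0 fell, with sums over the list of 1103 to 1389 and 8156 to 17749. Of all tested genes 32.4% rose and 29.8% fell, and with totals made equal 76.3% were higher and 6.37% lower. In bulk liver, fewer cells of a type and less RNA per cell cannot be told apart.

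In the fit across all genes (limma on log2(value + 1), Benjamini-Hochberg adjusted p under 0.05), 7 of the 10 genes changed, against 62.3% of all tested genes, so the number itself does not set them apart. Igf1r, Igfbp3, Igfbp7, Igfbp6 and Igf2r rose (32.4% of all tested genes rose), and Igfbp2 and Igfbp4 fell (29.8% of all fell). Igfbp1, Igfbp5 and Insr did not pass. The median log2 fold change of the 10 genes was 0.67, beside 0.03 over all tested genes. For 7 of the 10 the groups did not overlap, 5 higher and 2 lower, against 60.1% of all tested genes (30.7% higher and 29.4% lower). With totals made equal, 8 of the 10 were higher and 1 lower, against 76.3% and 6.37% of all (82.6% in either direction). When Mup (major urinary protein) and mitochondrial genes were left out of those totals, 7 were higher and 1 lower, against 62.9% and 10.7% (73.6%). Equal upper quartiles gave 5 higher and 2 lower, against 38.6% and 23.4% (62.0%), and quantile normalisation 6 and 1, against 27.8% and 29.8% (57.6%). Fold changes are on the log2(value + 1) scale, on which low genes appear to change less than they do.

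**Figure D1:**
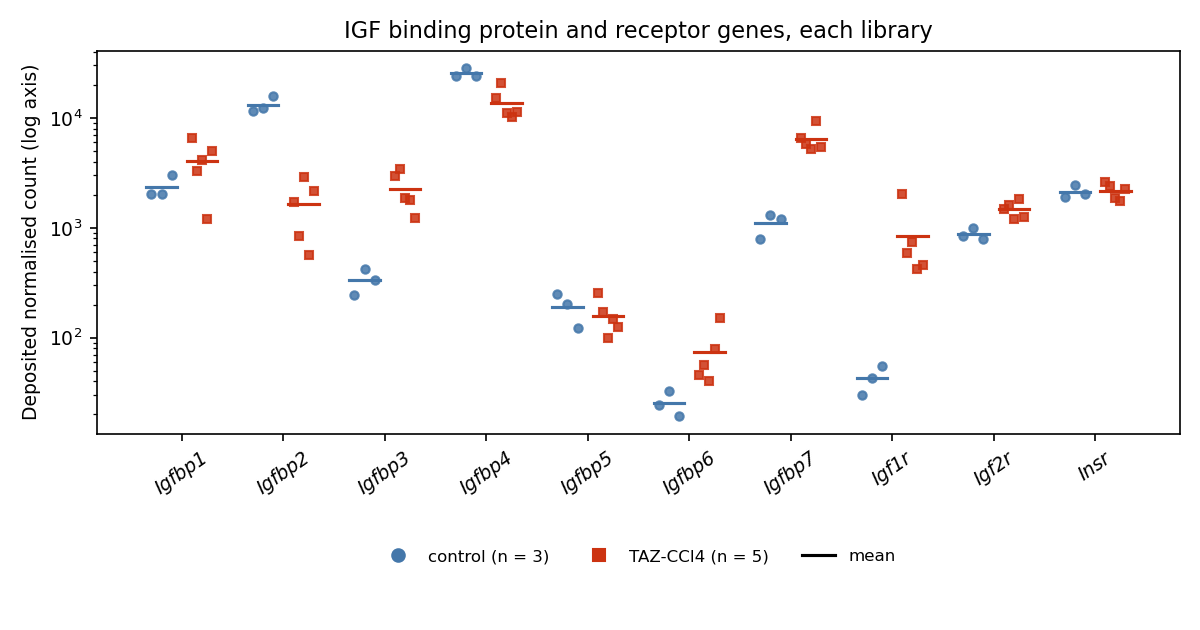
Deposited normalised count (log axis) of the 10 genes in each library; circles are the 3 control libraries, squares the 5 TAZ-CCl4 libraries and bars the group means. The groups are apart for Igfbp2, Igfbp3, Igfbp4, Igfbp6, Igfbp7, Igf1r and Igf2r and overlap for Igfbp1, Igfbp5 and Insr.

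Of the 3 receptor genes, Igf1r and Igf2r rose under all 5 scalings, and Insr passed under 3 of the 5. Igf1r (mm10 chromosome 7, 67952827 to 68233668), which encodes the receptor that carries the growth signal of IGF1 and IGF2, read 30.3, 43.0 and 55.3 in control livers, against 2032, 585, 746, 420 and 457 for TAZ-CCl4 replicates 1 to 5. All TAZ-CCl4 libraries were above all controls, and replicate 1 lay far above the other 4. The mean rose from 42.9 ± 12.5 (SD, n = 3) to 848 ± 674 (SD, n = 5; 552 without replicate 1) (log2 fold change 4.04 ± 0.46 SE; by limma, adjusted p = 3.50e-05). Without replicate 1 the log2 fold change was 3.66, and Igf1r, Igfbp3 and Igfbp7 each rose under the 4 other scalings too. By mean deposited count among all tested genes, Igf1r stood at percentile 22.7 in the controls and 79.1 in the TAZ-CCl4 libraries, replicate 1 included. These counts were not divided by length, and the Igf1r coding transcript is long, at 11.4 kb. Only the move between the groups is therefore read.

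Insr (chromosome 8, 3122061 to 3279617), the insulin receptor gene, read 1893, 2435 and 2050 in control livers, against 2591, 2390, 1879, 1761 and 2269 for TAZ-CCl4 replicates 1 to 5. The groups overlapped, with means of 2126 ± 279 (SD, n = 3) and 2178 ± 349 (SD, n = 5). The log2 fold change was 0.03 ± 0.16 (SE; limma, adjusted p = 0.888) at the deposited scaling, but 1.28 ± 0.18 at equal totals (limma, adjusted p = 5.47e-05), where the median of all genes was itself 1.26. It also passed when Mup and mitochondrial genes were left out of the totals, at 0.86 (limma, adjusted p = 5.01e-04), with a median of 0.85 over all genes. After quantile normalisation it passed at 0.61 (limma, adjusted p = 0.00845), with a median of -0.05. Insrr, the gene of the insulin receptor-related receptor, was at 0 in all controls and at most 5.10 in a TAZ-CCl4 library, and was not tested.

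Igf2r (chromosome 17, 12682406 to 12769664), the gene of the clearance receptor for IGF2, read 845, 985 and 796 in control livers, against 1495, 1611, 1206, 1809 and 1243 for TAZ-CCl4 replicates 1 to 5. All 5 TAZ-CCl4 libraries were above the controls. Its mean rose from 875 ± 97.9 (SD, n = 3) to 1473 ± 253 (SD, n = 5) (log2 fold change 0.74 ± 0.16 SE; by limma, adjusted p = 0.00217), and it also rose under the 4 other scalings tried.

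A ratio of 2 genes within a library does not depend on how the library was scaled, so 6 pairs were compared that way; each ratio was not divided by length, and only its change between groups is read. The exact two-sided permutation test over the 56 splits into 3 and 5 libraries cannot give a p below 0.0357. All 6 pairs reached it (exact permutation p = 0.0357 after Benjamini-Hochberg adjustment over the 6 as well). The genes were chosen with earlier results of these data known, and 60.1% of single tested genes also did not overlap between the groups. Reaching this p therefore does not set the pairs apart, and the share among other gene pairs was not computed. The ratio of Igf1r to Insr was 0.0160, 0.0177 and 0.0270 in control livers, against 0.784, 0.245, 0.397, 0.239 and 0.202 for TAZ-CCl4 replicates 1 to 5, 16.2-fold higher by the difference of mean log2 ratios (log2 difference 4.02; exact permutation p = 0.0357). The balance of these receptor transcripts moved towards Igf1r in 5 of 5 TAZ-CCl4 libraries. The ratio of Igf2r to M6pr, the gene of the smaller, cation-dependent mannose 6-phosphate receptor, was 0.348, 0.413 and 0.360 in control livers, against 0.881, 0.932, 0.528, 0.892 and 0.584 for TAZ-CCl4 replicates 1 to 5 (log2 difference 0.99; exact permutation p = 0.0357). M6pr itself did not pass as deposited (-0.26 ± 0.13 on the log2 scale; limma, adjusted p = 0.113) and was higher at equal totals, at 0.99.

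**Figure D2:**
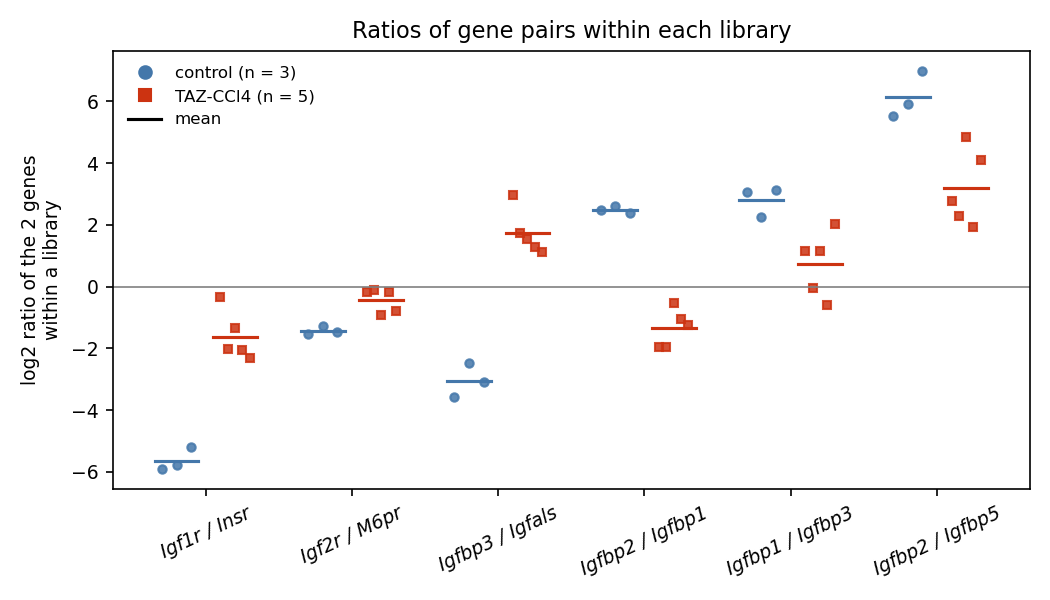
Log2 ratio of 2 genes within each library for the 6 pairs; circles are controls, squares TAZ-CCl4 libraries and bars group means. The groups do not overlap for any of the 6 pairs, with differences from -3.84 (Igfbp2 to Igfbp1) to 4.79 (Igfbp3 to Igfals).

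Igfbp2 and Igfbp4 were the binding protein genes with the highest control levels per kilobase, and both fell at the deposited scaling, Igfbp2 by far more. Igfbp2 (chromosome 1, 72824503 to 72852474) encodes a binding protein secreted by the liver. It read 11498, 12187 and 15781 in control livers, against 1717, 843, 2916, 570.0 and 2147 for TAZ-CCl4 replicates 1 to 5. All TAZ-CCl4 libraries were below all controls, replicates 4 and 2 lowest. The mean fell from 13155 ± 2300 (SD, n = 3) to 1638 ± 958 (SD, n = 5) (log2 fold change -3.23 ± 0.46 SE; by limma, adjusted p = 1.66e-04). It fell under the 4 other scalings as well, by 1.98 on the log2 scale at equal totals.

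Igfbp4 (chromosome 11, 99041244 to 99054392) encodes a binding protein that restrains IGF action until the protease PAPP-A cleaves it. It read 24027, 28336 and 23938 in control livers, against 15129, 20712, 11170, 10123 and 11284 for TAZ-CCl4 replicates 1 to 5. The groups did not overlap at the deposited scaling, and the mean fell from 25434 ± 2514 (SD, n = 3) to 13683 ± 4366 (SD, n = 5). Its log2 fold change was -0.94 ± 0.24 (SE; limma, adjusted p = 0.00650) as deposited, -0.74 for equal upper quartiles, -0.11 with totals equalised leaving out Mup and mitochondrial genes, 0.31 at equal totals and 0.56 after quantile normalisation, and passed only at the first 2. The direction for Igfbp4 thus rests on the scaling, whereas that for Igfbp2 did not change under those tried.

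**Figure D3:**
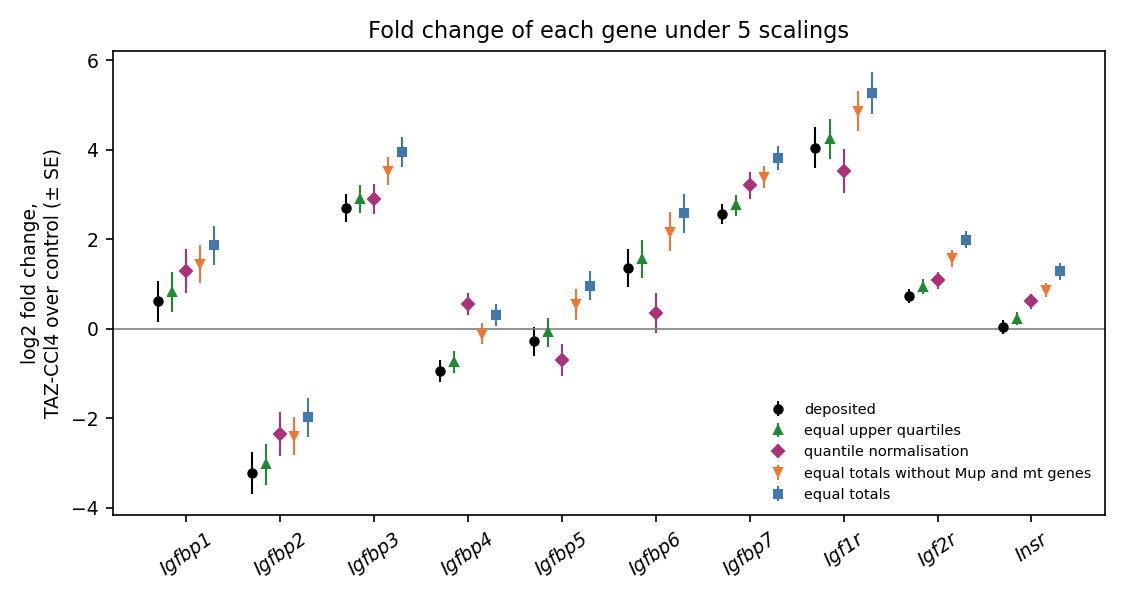
Log2 fold change (TAZ-CCl4 over control) of the 10 genes with its SE under the deposited scaling and 4 others. Igf1r, Igfbp3, Igfbp7, Igfbp6, Igf2r, Igfbp1 and Insr are above 0 and Igfbp2 below 0 under all 5, while Igfbp4 and Igfbp5 cross 0.

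Igfbp1 (chromosome 11, 7197782 to 7202546), a hepatocyte gene that insulin represses, read 2037, 2011 and 2997 in control livers, against 6601, 3279, 4165, 1192 and 5040 for TAZ-CCl4 replicates 1 to 5. Replicates 1, 2, 3 and 5 were above all controls and replicate 4 below all of them. Igfbp1 did not pass, with means of 2348 ± 562 (SD, n = 3) and 4056 ± 2017 (SD, n = 5) and a log2 change of 0.61 ± 0.46 (SE) and, by limma, adjusted p = 0.267. Without TAZ-CCl4 replicate 4 it passed, at 1.001 ± 0.24 (limma, adjusted p = 0.00617), as it did at equal totals with all libraries, at 1.86 (limma, adjusted p = 0.00214). It also passed with Mup and mitochondrial genes left out of the totals, at 1.44 (limma, adjusted p = 0.0113). Quantile normalisation gave 1.29 (limma, adjusted p = 0.0475), again passing. The medians of all tested genes under these scalings were 1.26, 0.85 and -0.05, in that order. The ratio of Igfbp2 to Igfbp1 went from 5.64, 6.06 and 5.27 in the controls to 0.260, 0.257, 0.700, 0.478 and 0.426 (log2 difference -3.84; exact permutation p = 0.0357). The ratio was lower in every TAZ-CCl4 library than in any control.

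Igfbp3 (chromosome 11, 7206086 to 7213923) encodes the main carrier of IGFs in blood, made in the liver largely by non-parenchymal cells. It read 244, 419 and 338 in control livers, against 2985, 3398, 1854, 1803 and 1239 for TAZ-CCl4 replicates 1 to 5. Every TAZ-CCl4 library was above every control, and the mean rose from 334 ± 87.6 (SD, n = 3) to 2256 ± 899 (SD, n = 5) (log2 fold change 2.69 ± 0.31 SE; by limma, adjusted p = 4.23e-05). Igfals (chromosome 17, 24865997 to 24882010), which encodes the acid-labile subunit that joins IGFBP3 and an IGF in the circulating ternary complex, fell with a log2 fold change of -2.09 ± 0.26. The ratio of Igfbp3 to Igfals was 0.0841, 0.179 and 0.117 in control livers, against 7.86, 3.35, 2.95, 2.44 and 2.20 for TAZ-CCl4 replicates 1 to 5 (log2 difference 4.79; exact permutation p = 0.0357). Transcripts of these complex partners therefore moved apart, in 5 of 5 TAZ-CCl4 libraries.

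Igfbp7 (chromosome 5, 77349240 to 77408041) encodes a secreted protein of low IGF affinity found in vessel walls and matrix. It read 791, 1301 and 1204 in control livers, against 6583, 5771, 5230, 9360 and 5392 for TAZ-CCl4 replicates 1 to 5. The groups were far apart, with replicate 4 highest, and the mean rose from 1099 ± 271 (SD, n = 3) to 6467 ± 1700 (SD, n = 5) (log2 fold change 2.55 ± 0.22 SE; by limma, adjusted p = 6.34e-06). At 26.3%, the coefficient of variation of Igfbp7 in the TAZ-CCl4 libraries was the lowest of the 7 binding protein genes. An exon stretch of 85 bases is shared with the opposite-strand gene Polr2b, whose values of 500 to 618 in the TAZ-CCl4 libraries were below its 738 to 771 in the controls at the deposited scaling.

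Igfbp6 and Igfbp5 had the lowest mean levels per kilobase of the binding protein genes in both groups. Igfbp6 (chromosome 15, 102144362 to 102149511), whose product prefers IGF2, read 24.6, 32.6 and 19.2 in control livers, against 45.4, 55.9, 39.97, 78.9 and 152 for TAZ-CCl4 replicates 1 to 5. The TAZ-CCl4 libraries were all above the controls, replicate 5 highest, and the log2 fold change was 1.36 ± 0.43 (SE; limma, adjusted p = 0.0180). Leaving out control replicate 1 ended the call (1.35; limma, adjusted p = 0.0502) as did leaving out control replicate 3 (1.18; limma, adjusted p = 0.0728) and quantile normalisation, at 0.34 (limma, adjusted p = 0.531). Igfbp5 (chromosome 1, 72857932 to 72874884), which encodes a matrix-bound binding protein, read 251, 203 and 123 in control livers, against 253, 172, 99.3, 147 and 124 for TAZ-CCl4 replicates 1 to 5. The groups overlapped (log2 fold change -0.28 ± 0.32; limma, adjusted p = 0.461), although Igfbp5 passed at equal totals, at 0.96 (limma, adjusted p = 0.0168). That was below the median of all tested genes at equal totals, 1.26, and quantile normalisation gave -0.70 (limma, adjusted p = 0.116).

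The rises of Igfbp3, Igfbp6, Igfbp7 and Igf1r stood beside the rise of the fibroblast markers given above. Of 10 endothelial markers, 5 rose and 2 fell, with summed levels of 1701 to 3119 in the controls and 2393 to 3636 in the TAZ-CCl4 libraries, and of 10 stellate cell markers 1 rose and 3 fell, with sums of 2700 to 5031 and 2936 to 3299. Cholangiocyte markers rose in 8 of 8 tested, their sums going from 2310 to 2916 up to 35233 to 122392, and macrophage markers rose in 6 of 10 and fell in 1, with sums of 2241 to 3751 and 12796 to 25416. None of these lists had a marker at 0 throughout a group. Lymphocyte and neutrophil markers rose in 4 of 6 tested (sums of 152 to 269 and 816 to 1489.8; 1 marker at 0 in all controls), erythroid markers fell in 5 of 5 (9202 to 10076 and 812 to 3644), and of 3 tested mesothelial markers 1 fell. These counts are at the deposited scaling, at which 32.4% of all tested genes rose and 29.8% fell. With totals made equal, 76.3% of all tested genes were higher and 6.37% lower. Stellate markers were then 5 higher and 1 lower, endothelial markers 8 higher and 0 lower, and erythroid markers 0 higher and 1 lower. The fibroblast list had 11 higher, the cholangiocyte list 8 and the lymphocyte and neutrophil list 4, with 0 lower in each, the macrophage list 7 higher and 1 lower, and the mesothelial list 1 higher and 1 lower. The part of cell make-up in the changes of the IGF genes was not tested.

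Levels of different genes are comparable only per length, and the length of a gene's coding transcripts is itself uncertain here, most of all for Igfbp4 (0.742 kb for the median coding transcript, 3.83 kb for the longest). In both versions the controls' binding protein signal per kilobase was mostly Igfbp2 and Igfbp4. Together these made up 94.4 ± 0.835% of the summed Igfbp signal per kilobase with median lengths (SD, n = 3) and 86.4 ± 1.06% with longest lengths. In the TAZ-CCl4 libraries the same share was 67.0 ± 6.26% (SD, n = 5) and 34.6 ± 6.72%. The share of Igfbp7 went from 1.94 ± 0.357% to 19.9 ± 7.94% with median lengths and from 4.70 ± 0.888% to 39.4 ± 12.9% with longest lengths. The share of Igfbp3 went from 0.331% to 3.63% and from 0.7098% to 6.59%. Shares do not depend on the scaling of a library.

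**Figure D4:**
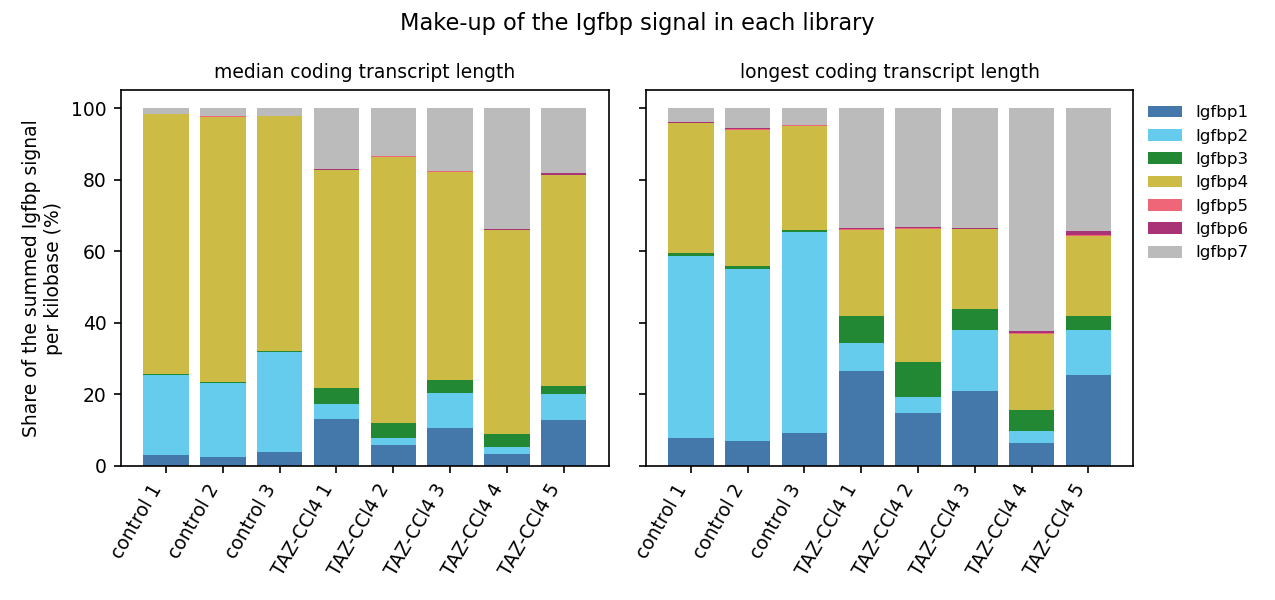
Share (%) of each Igfbp gene in the summed Igfbp signal per kilobase, by library, with median (left) and longest (right) coding transcript lengths. Igfbp2 and Igfbp4 fill 93.5% to 95.1% (left) and 85.3% to 87.5% (right) of the control bars, and the Igfbp7 part is larger in all 5 TAZ-CCl4 bars.

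Per kilobase with median lengths, the control order was Igfbp4 (34277), Igfbp2 (11449), Igfbp1 (1540), Igfbp7 (949), Insr (424), Igfbp3 (162), Igf2r (98.5), Igfbp5 (32.0), Igfbp6 (22.9) and Igf1r (3.76). With longest lengths Igfbp2 (10065) stood above Igfbp4 (6639) and the rest kept that order. The neighbours Igfbp5 and Igfbp6 overlapped between control libraries, as did Igfbp3 and Igf2r with longest lengths. In the TAZ-CCl4 libraries the order with median lengths was Igfbp4 (18441), Igfbp7 (5585), Igfbp1 (2659), Igfbp2 (1426), Igfbp3 (1092), Insr (434), Igf2r (166), Igf1r (74.3), Igfbp6 (66.9) and Igfbp5 (26.5). With longest lengths the mean of Igfbp7 (5389) stood above that of Igfbp4 (3572), but not in replicate 2, with 5406 for Igfbp4 and 4809 for Igfbp7. With median lengths, neighbours overlapped between libraries from Igfbp1 to Igfbp2 to Igfbp3, and from Igf2r through Igf1r and Igfbp6 to Igfbp5. With longest lengths they overlapped throughout, except between Igfbp3 and Insr. By its mean, Igf1r was last of the 10 genes in the controls and not in the TAZ-CCl4 libraries.

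The binding protein genes include neighbouring pairs that point towards each other, and members of a pair changed unequally. Igfbp1 and Igfbp3 lie 3539 bases apart on chromosome 11, and Igfbp2 and Igfbp5 lie 5457 bases apart on chromosome 1, with no annotated gene between in either case. The ratio of Igfbp1 to Igfbp3 was 8.35, 4.80 and 8.87 in control livers, against 2.21, 0.965, 2.25, 0.661 and 4.07 for TAZ-CCl4 replicates 1 to 5 (log2 difference -2.08; exact permutation p = 0.0357). The ratio of Igfbp2 to Igfbp5 was 45.9, 60.1 and 129 in control livers, against 6.80, 4.91, 29.4, 3.87 and 17.3 for TAZ-CCl4 replicates 1 to 5 (log2 difference -2.95; exact permutation p = 0.0357). In both pairs the groups did not overlap.

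The promoters of these pairs and of Igf1r are shown because neighbours changed unequally and Igf1r had the largest rise of the 10 genes. They run from 250 bases before to 50 after the RefSeq start (GRCm38.p6, the assembly of mm10), 5′ to 3′ on the gene's strand. The Igf1r window lies wholly before the gene start at 67952827 given above, which is from GENCODE, since the annotations place the start differently. Capitals mark matches, on both strands, to the TEAD core GGAATG, the FOXO site GTAAACA, the insulin response element core CAAAACA, the AP-1 site TGACTCA and the SP1 box GGGCGG. A second Igfbp2 start is in the table and its window is not printed.
Igfbp1, chr11:7197537-7197836, plus strand: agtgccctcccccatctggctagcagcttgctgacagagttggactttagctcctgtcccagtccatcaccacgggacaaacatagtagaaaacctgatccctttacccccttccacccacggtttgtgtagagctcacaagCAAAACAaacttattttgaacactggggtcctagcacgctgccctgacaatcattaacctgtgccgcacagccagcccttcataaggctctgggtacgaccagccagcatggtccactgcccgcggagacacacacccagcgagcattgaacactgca
Igfbp3, chr11:7213874-7214173, minus strand: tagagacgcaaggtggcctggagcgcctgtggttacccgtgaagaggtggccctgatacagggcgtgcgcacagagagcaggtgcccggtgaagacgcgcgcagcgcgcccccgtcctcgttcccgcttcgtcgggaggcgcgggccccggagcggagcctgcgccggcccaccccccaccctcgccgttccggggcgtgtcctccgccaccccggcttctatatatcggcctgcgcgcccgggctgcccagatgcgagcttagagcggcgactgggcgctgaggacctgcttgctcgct
Igfbp2, chr1:72824230-72824529, plus strand: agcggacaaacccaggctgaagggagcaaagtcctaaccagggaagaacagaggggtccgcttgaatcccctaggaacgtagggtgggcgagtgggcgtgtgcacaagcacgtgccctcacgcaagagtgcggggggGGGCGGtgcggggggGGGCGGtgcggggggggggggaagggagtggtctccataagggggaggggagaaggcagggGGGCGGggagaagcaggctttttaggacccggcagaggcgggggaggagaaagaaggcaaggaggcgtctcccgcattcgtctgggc
Igfbp5, chr1:72874816-72875115, minus strand: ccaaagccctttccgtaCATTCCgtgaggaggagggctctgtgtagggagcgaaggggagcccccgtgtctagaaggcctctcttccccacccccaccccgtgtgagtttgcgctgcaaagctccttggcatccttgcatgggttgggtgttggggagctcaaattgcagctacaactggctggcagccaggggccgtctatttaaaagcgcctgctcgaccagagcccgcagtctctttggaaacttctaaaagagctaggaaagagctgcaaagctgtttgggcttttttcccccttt
Igf1r, chr7:67952007-67952306, plus strand: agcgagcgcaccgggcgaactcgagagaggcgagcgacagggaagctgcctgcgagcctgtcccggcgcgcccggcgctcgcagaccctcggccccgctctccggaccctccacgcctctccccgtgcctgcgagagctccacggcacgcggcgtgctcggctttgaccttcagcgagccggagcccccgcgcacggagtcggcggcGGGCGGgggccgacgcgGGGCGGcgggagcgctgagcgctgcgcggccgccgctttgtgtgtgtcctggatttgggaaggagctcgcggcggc

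The Igfbp1 window holds 1 exact match to the insulin response element core CAAAACA, starting 108 bases before the start. These letters are found in 6.28% of the 32851 promoter windows of this length, and variants of them were not searched. The Igfbp5 window holds 1 TEAD core, written CATTCC because it lies on the other strand, 233 bases before the start (14.7% of windows). None of the windows of Igf1r, Igfbp3 and Igfbp7 held the TEAD core, the FOXO site or the AP-1 site. The windows of Igf1r and Igfbp2 printed here hold 2 and 3 SP1 boxes (35.7% of windows hold at least 1), and the Igfbp3 window holds none of the 5 sequences. A match is a description of these letters and not a bound site. In GC content the Igf1r window, at 76.0%, and the Igfbp3 window, at 71.7%, stood at percentiles 96.9 and 92.6 of all windows, against 54.3% for Igfbp1 and a median of 52.7%. Windows of 9 of the 10 genes were found by symbol.

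Within the TAZ-CCl4 group the binding protein genes differed in how much they varied between libraries. The highest value was 5.54 times the lowest for Igfbp1 and 5.12 times for Igfbp2, against 1.79 times for Igfbp7 and 1.47 times for Insr. Replicate 4 had the lowest Igfbp1, Igfbp2, Igfbp4, Igf1r and Insr and the highest Igfbp7 and Igf2r. The ligand gene Igf2 (chromosome 7, 142650766 to 142666816) stood at 39055, 114439, 14045, 112853 and 4695 in replicates 1 to 5 and at 8.75 to 24.6 in the controls, and Igf1 (chromosome 10, 87858265 to 87937042) at 1194, 2271, 3394, 1280 and 2786 and at 19455 to 23114. The libraries with the highest Igf2, replicates 2 and 4, were the ones with the lowest Igfbp1 and Igfbp2. With 5 libraries no correlation is given, and this alignment was picked out after the values were seen.

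**Figure D5:**
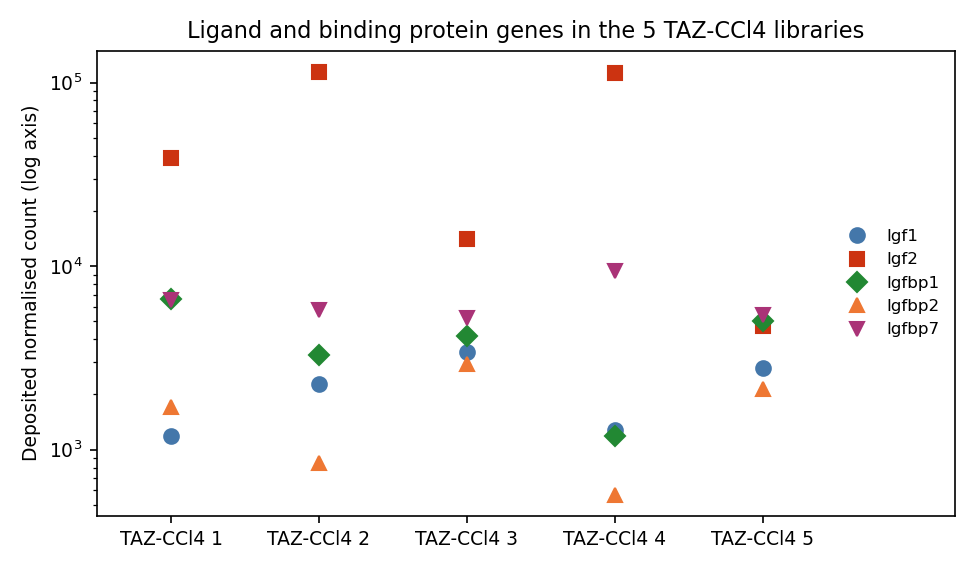
Deposited normalised count (log axis) of Igf1, Igf2, Igfbp1, Igfbp2 and Igfbp7 in the 5 TAZ-CCl4 libraries, 1 point per gene and library. Igf2 is highest in replicates 2 and 4 (114439 and 112853), where Igfbp2 (843 and 570.0) and Igfbp1 (3279 and 1192) are lowest.

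By the nearest profile over the 8 libraries (root mean square difference of log2 values after subtracting each gene's control mean, over 11547 genes with a mean of at least 50), Nedd9, a scaffold protein gene of focal adhesions, lay closest to Igf1r, at 0.33. Olfml2b and Gpm6b followed, both at 0.39, against a median of 3.31 over the genes compared. Nedd9 read 39.2, 52.5 and 47.4 in control livers, against 1552, 538, 784, 457 and 740 for TAZ-CCl4 replicates 1 to 5. Its highest value was in the same library as that of Igf1r. Profiles were picked for nearness over these same libraries, so a distance below the median and a shared highest library largely follow from the choice. Closest to Igfbp2 were Hsd3b3, a hydroxysteroid dehydrogenase gene, at 0.31, Angptl6, an angiopoietin-like gene, at 0.38 and the non-coding RNA gene Snhg11 at 0.42, against a median of 2.63. Hsd3b3 read 6445 to 6846 in control livers, against 586, 435, 1041, 313 and 912 for TAZ-CCl4 replicates 1 to 5.

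Around the receptors and binding proteins, further pathway genes were read from 7 lists. Beside the counts of each list, 32.4% of all tested genes rose and 29.8% fell as deposited. At equal totals 76.3% of all tested genes were higher and 6.37% lower. Of 3 tested ligand and ternary complex genes, Igf2 rose and Igf1 and Igfals fell; Ins1 and Ins2 were not tested. Of 11 tested proteases of binding proteins and their inhibitors, 8 rose and 1 fell, with a median log2 fold change of 3.56 (10 higher and 1 lower at equal totals). Plau (urokinase; 5.05 ± 0.46), Stc2 (5.03 ± 0.37) and Stc1 (4.85 ± 0.42) rose most; stanniocalcins, the products of the last pair, inhibit PAPP-A. Pappa itself had a mean of 0.402 in the controls and 12.4 in the TAZ-CCl4 libraries (8.01 without replicate 1) and did not pass the filter. Klkb1, the plasma kallikrein gene of hepatocytes, fell, at -3.58. Of 6 tested genes of binding protein-related secreted proteins, 4 rose and 0 fell (6 higher and 0 lower at equal totals), among them Ccn2 (5.04 ± 0.55; mean 5105, and 2876 without TAZ-CCl4 replicate 1), Esm1 (4.77 ± 0.41), an endothelial proteoglycan gene, and Ccn4 (4.70 ± 0.46).

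Of 35 tested genes of insulin and IGF receptor signalling, 12 rose and 8 fell, while 15 were not called. Of all tested genes 32.4% rose and 29.8% fell. The median log2 fold change of the 35 was -0.05, beside 0.03 for all tested genes. With equal totals all 35 were called higher, as were 76.3% of all tested genes. The list median was then 1.20, beside 1.26 for all tested genes. Grb10, an imprinted gene whose product binds and restrains both receptor kinases, rose from 91.5 ± 11.2 (SD, n = 3) to 1191 ± 638 (SD, n = 5), a log2 fold change of 3.52 ± 0.39, while its relative Grb14 fell, at -0.79, though it was higher at equal totals. Inpp5d (3.09 ± 0.20) and Pik3cd (2.65 ± 0.23), phosphoinositide genes of blood cells, rose beside the macrophage markers given above, and their source was not tested. The kinase gene Akt1 rose, at 0.89, and Akt2, the main form of insulin action in liver, fell, at -0.82, though it was higher at equal totals. Of the substrate genes Irs2 rose, at 1.54 ± 0.28, and Irs1 did not pass, at 0.26 (limma, adjusted p = 0.336).

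Of 8 genes that insulin represses in hepatocytes through FOXO1, Irs2 rose, Pck1, G6pc and Trib1 fell, and 4 did not pass. Equal totals gave 5 higher and 2 lower and moved the list median from -0.39 to 0.85 on the log2 scale; Trib1 was then not called, at -0.20 (limma, adjusted p = 0.358). Pck1 and G6pc, enzymes of glucose production, had log2 fold changes of -3.21 ± 0.45 and -2.64 ± 0.54. For both, every TAZ-CCl4 library was below every control. Igfbp1, which did not pass at the deposited scaling, was above all controls in 4 of the 5 TAZ-CCl4 libraries, and Irs2 in every one. Pck1 stood at 12252, 4735, 7255, 2394 and 9120 in TAZ-CCl4 replicates 1 to 5, lowest in replicates 4 and 2 as Igfbp1 was. G6pc, at 969, 1039, 3619, 548 and 2878, was lowest in replicates 4 and 1. The likeness of Pck1 to Igfbp1 was picked out after the values were seen. Of 8 mannose 6-phosphate pathway genes, Gnptab rose (0.74 ± 0.17), Gnptg (-1.15 ± 0.14) and Nagpa (-0.54 ± 0.19) fell at the deposited scaling, and 5 were not called; equal totals gave 7 higher and 0 lower, with Gnptg at 0.10 and Nagpa at 0.70. All 3 genes of the IGF2 mRNA-binding proteins rose, at 7.24 ± 0.59 for Igf2bp3, 4.70 ± 0.65 for Igf2bp1 and 1.23 ± 0.42 for Igf2bp2. The control mean of Igf2bp1 was 17.4, and 5.15 without control replicate 1. The Igf2bp2 call was lost after quantile normalisation and without TAZ-CCl4 replicate 1 or 5 or control replicate 2 or 3, and the Nagpa call was lost without any 1 control and without TAZ-CCl4 replicate 1 or 5.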

How the data were processed

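Livers gave 8 poly-A selected RNA-seq libraries, 3 control and 5 TAZ-CCl4, grouped by their labelled source. The authors deposited a signal, normalised estimated counts by gene and library; kallisto and DESeq2 are named in the deposited table's title, and DESeq2 and mm10 per the submitters' processing notes. Versions, transcript annotation and strand setting were not given in the sources used here. Whole reads were not recovered (47.3% to 66.8% of low values, those below 10, were within 0.03 of a multiple of the most frequent low value), so no count model was run. Genes with a mean of at least 10 over all libraries (14171) were compared as log2(value + 1) with limma 3.58.1 (R 4.3.3), using a prior variance trend and Benjamini-Hochberg adjustment at 0.05; the fit was checked on simulated data. Scalings tried besides the deposited one were equal totals, equal totals without Mup and mitochondrial genes, equal upper quartiles and quantile normalisation; other alternatives were pseudocounts of 0.5 and 10, filters of none and 50, limma without a trend or with a robust prior, a replicate block and leaving out each library. Same-group libraries differed by 4.49 to 31.2 times the variance of counting noise, so none was counted as a duplicate. Ratios within a library used an exact two-sided permutation test. Positions and lengths are from GENCODE M21, promoters from RefSeq. Named genes are the 10 genes, Igf1, Igf2, Igfals, M6pr, Insrr and Wwtr1, up to 3 changed genes of each pathway list with the largest change and a group mean of at least 50, and the 3 nearest profiles of the largest rise and fall; other list genes were named after their values were seen. The genes and lists were chosen with earlier results of these data known.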

Additional observations from a re-analysis of the deposited data

Results flagged for a closer look

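Dixon's 95% limit for the distance of the highest or lowest library from the rest is 0.71 of the range. In 6 of 46 genes and ratios examined over the 5 TAZ-CCl4 libraries, a library passed it, each time the highest. Chance gives a passing library at either end for about 1 in 20 where values spread normally. The 6 were read as deposited values and not on the log2 scale of the fits, where a high value stands out less. That rate may therefore not hold here. All 6 were TAZ-CCl4 replicate 1. They were Igf1r at 2032, Wwtr1 at 9021, Stc2 at 441, Ccn2 at 14019, Igf2bp1 at 575 and Gpm6b at 343. The items are not independent of each other, since Gpm6b was named for its likeness to Igf1r, and the same library also had the highest Igfbp1 and Insr without passing the limit.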

How the results depend on the processing

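The scaling moved the counts most. Over all tested genes 4592 were higher and 4230 lower as deposited, against 10808 and 903 with equal totals, or 8912 and 1512 when those totals left out Mup and mitochondrial genes. Of the 10 genes, 5 were higher and 2 lower as deposited and 8 and 1 with equal totals; 1 was also the number lower when Mup and mitochondrial genes were left out and after quantile normalisation. Among genes recomputed under every alternative, directions that turned, in the order of equal totals, equal totals without those genes and quantile normalisation, were those of M6pr (0.99, 0.58 and 0.33), Igfbp5 (0.96 and 0.54, the third keeping its sign), Igfbp4 (0.31 and, after quantile normalisation, 0.56), Nagpa (0.70 and 0.29) and Gnptg (0.10 at equal totals). Grb14 and Akt2, compared under the scalings alone, also turned, to 0.46 and 0.43 at equal totals and to 0.044 and 0.0091 without those genes. Equal totals raised the middle value over the tested genes too, from 0.03 as deposited to 1.26. With Mup and mitochondrial genes left out of the totals it was 0.85, and after quantile normalisation -0.05. The turns at equal totals, with or without those genes, thus came with an upward move over the tested genes as a whole. Those of M6pr and Igfbp4 after quantile normalisation did not, and why they turned there was not tested. Insr, near 0, ranged from -0.052 to 0.13 when single libraries were left out. Leaving out 1 library gave 7615 to 8855 called genes and 3.70 to 4.24 for the group difference in the log2 ratio of Igf1r to Insr; the 6 ratios kept their direction under every alternative run, but with a library left out too few splits remain to pass the test. With the replicate number as a block 7280 genes were called, Igfbp1 passed (0.96; limma, adjusted p = 0.0200) and Igfbp6 did not (0.88; limma, adjusted p = 0.0775). TAZ-CCl4 replicates 4 and 5 have no control of their number, so the group difference in that fit rests on replicates 1 to 3 alone. It thus lacks the lowest Igfbp1 (1192, replicate 4) and the highest Igfbp6 (152, replicate 5). The effect of the block itself on these calls was not tested. Libraries of equal number did not deviate together (correlations of -0.07, -0.06 and -0.09), so they share only a number. The depth behind each value is an estimate, and low genes such as Igfbp6 and control Igf1r carry the most counting error.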

Other observations

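Per kilobase with median coding transcript lengths, the summed signal of the 7 binding protein genes was 44589 to 51504 in the controls and 33425, 37505, 25789, 23971 and 25794 in TAZ-CCl4 replicates 1 to 5. The summed signal of Igf1 and Igf2 was 14237 to 16911 in the controls and 16476, 47381, 8093, 46023 and 3913 in the same TAZ-CCl4 libraries. The ligand sum exceeded the binding protein sum in TAZ-CCl4 replicates 2 and 4 and in no control. With longest lengths the ligand sum was 8440, 24557, 3456, 24081 and 1389 and the binding protein sum 16393, 14493, 13055, 12500.0 and 13055, with the same replicates above. In the controls the ligand signal was nearly all Igf1, and in the TAZ-CCl4 libraries Igf2 exceeded Igf1 per kilobase in replicates 1 to 4 with median lengths, while replicate 5 had 1876 for Igf2 and 2037 for Igf1. With longest lengths Igf2 exceeded Igf1 in all 5, with 994 and 395 in replicate 5.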
